A study of Mus musculus with 189 samples.

Results

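Setd8, Suv420h1 and Suv420h2 encode the enzymes that place methyl groups on lysine 20 of histone H4 (H4K20), and their transcripts were followed from the mouse oocyte to the 32-cell embryo. They were chosen by name, as 3 of the 192 assays and 3 of the 156 assays that the deposited table marks as passed. RefSeq names of the GRCm38.p6 assembly match them, as synonyms, to Kmt5a (gene ID 67956), Kmt5b (gene ID 225888) and Kmt5c (gene ID 232811). The study's list of assays gives the Setd8 assay a long name that begins with Setd7, while the transcript it lists there is one of Kmt5a, and Setd7 has an assay of its own.

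Setd8 adds the first methyl group to H4K20, a mark that rises and falls with the cell cycle and is tied to chromosome compaction and genome stability. Suv420h1 and Suv420h2 use the monomethylated lysine as substrate and make the dimethyl and trimethyl forms, of which the trimethyl form is a mark of constitutive heterochromatin that is brought there through the H3K9 methylation and HP1 pathway. After fertilization the embryo first lives on transcripts stored in the oocyte, and in the mouse the main wave of zygotic genome activation comes at the 2-cell stage.

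Gene expression was measured by microfluidic quantitative PCR in MII oocytes (mature unfertilized eggs), zygotes and embryos of superovulated F1 females of the C57BL/6 and DBA/2 strains, mated to C57BL6 males for embryos. No genotype or agent differed between groups, embryos were cultured in KSOMaa medium at low oxygen, and the age of the females was not given in the sources used here. The main set comprised 168 of the 189 samples, from 58 oocytes, zygotes or embryos: 11 MII oocytes, 14 zygotes, and 21, 7, 12, 27, 26 and 50 samples of the 2-, 3-, 4-, 8-, 16- and 32-cell stages. These stages held 8, 3, 6, 7, 2 and 7 embryos, counted with 11 blastomeres of unnamed 2-cell embryos as 1. The 2 embryos of the 16-cell stage carry that stage in the labels, but their source name also holds the word blastocyst and their blastomeres are numbered up to 20 and 19. Whole embryos of the 16- and 32-cell stages, isolated groups of inner cell mass (ICM) and trophectoderm (TE) cells, and RNA of embryonic stem cells (ESC) were measured as well.

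Each value is a cycle threshold (Ct), where a lower Ct means more transcript and a Ct of 30 marks a gene that was not detected. Normalized log2 expression is 30 minus the Ct, minus the mean of the same for the control genes Hnrnpr, Ssu72 and Ube2e1. The mean Ct of the control genes ran from 12.9 ± 0.325 (SD, n = 11) in MII oocytes to 17.5 ± 1.25 (SD, n = 50) in 32-cell samples, so the late samples held less template of these genes, although they were of 1 to 7 cells and each oocyte sample was of 1 cell. The oocyte genes Dazl and ZP3 were detected in all 11 MII oocytes, while Dazl was detected in 8 of 50 samples of the 32-cell stage. Levels are compared below between stages for 1 gene. A difference between genes also holds the efficiency of each assay, so that only its change between stages was tested. Where assays respond differently to the amount of template, that change can hold template amount as well.

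Setd8 transcripts were present in nearly every sample and, relative to the control genes, changed little from stage to stage. On the same scale Suv420h1 was low in oocytes and zygotes and 6.53-fold higher at the 2-cell stage. This rise was 1.66 log2 units with whole 2-cell embryos alone and 3.33 with blastomere samples alone. Without normalization, Suv420h1 content per whole embryo differed by 0.07 cycles. Suv420h2 was the weakest of the assays, and it was not detected in many single blastomeres of the 2-, 4-, 8- and 32-cell stages, while it was detected in 19 of 20 of the 16-cell stage.

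**Figure D1:**
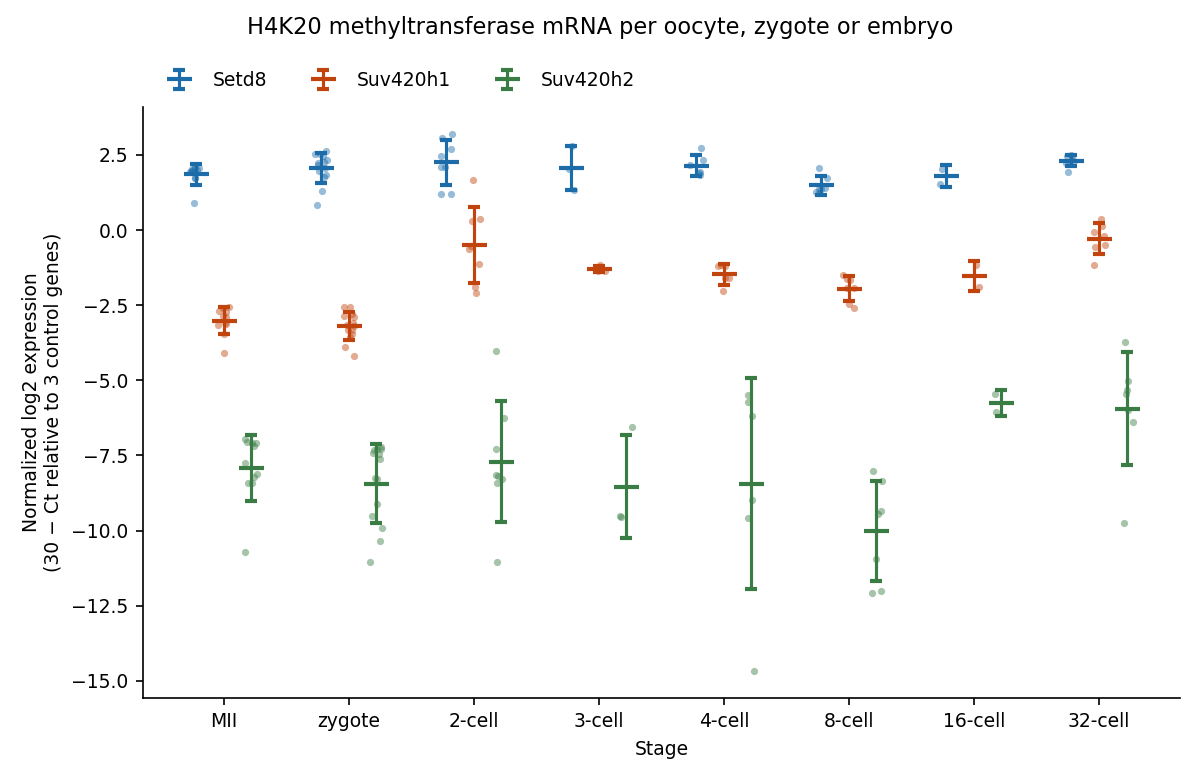
Normalized log2 expression of Setd8, Suv420h1 and Suv420h2 (y axis) at each stage (x axis). Points are the 58 oocytes, zygotes or embryos, each the mean of its samples, and bars give the mean and SD of a stage. Setd8 stays between stage means of 1.49 and 2.31, Suv420h1 steps up between zygote and 2-cell stage, and Suv420h2 is highest at the 16- and 32-cell stages.

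Setd8, the monomethyltransferase, had the narrowest range of stage means of all 156 genes. Its stage means spanned 0.824 log2 units, against a median range of 4.21 over all genes and 1.13, 1.97 and 1.01 for the control genes Hnrnpr, Ssu72 and Ube2e1. Because values are relative to these control genes, a flat course means that Setd8 moved with them.

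In MII oocytes Setd8 ran from 0.890 to 2.09 with a median of 1.98, and in zygotes from 0.819 to 2.63 with a median of 2.19. The 8 units of the 2-cell stage ran from 1.20 to 3.20 with a median of 2.28, and the 3 units of the 3-cell stage had a mean of 2.06 ± 0.724 (SD). The 6 units of the 4-cell stage ran from 1.83 to 2.72 with a median of 2.04. These ranges overlapped throughout. The 7 embryos of the 8-cell stage ran from 1.22 to 2.07 with a median of 1.37, the 2 embryos of the 16-cell stage were at 1.53 and 2.05, and the 7 of the 32-cell stage ran from 1.95 to 2.50 with a median of 2.29. The 8-cell stage was lowest and the 32-cell stage highest, and no neighbours in the order of the 8 stage means were further apart than the larger of their SDs.

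From the 4-cell to the 8-cell stage Setd8 fell by 0.66 on the log2 scale (SE 0.27, limma adjusted p = 0.0342), in a step in which 49.4% of all genes were called and the median of all genes moved by -0.51. The drop was no longer called without Ssu72 or Ube2e1 among the control genes, with sample medians or no normalization, with every sample as a replicate or with single cells. The other 5 steps between neighbouring stages were not called, with adjusted p from 0.413 to 0.767, although without Hnrnpr the step from zygote to 2-cell was called (0.62). From MII oocytes to 16-/32-cell embryos Setd8 differed by 0.34 (95% interval -0.09 to 0.77, adjusted p = 0.135), where 84.6% of all genes were called. Without Ssu72 as a control gene this difference was 0.82 and was called (adjusted p = 0.00072), as it was with sample medians (0.67) and with the 3 left-out samples added (0.45).

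Setd8 was detected in all but 1 of the 168 samples. The exception was 1 of the 11 blastomeres from unnamed 2-cell embryos, whose control genes had a mean Ct of 17.9, within the 13.7 to 18.8 of the other 20 samples of this stage. In that blastomere 32 genes were not detected, against 8 to 30 in the others, and Suv420h1 was measured at -2.01. Setd8 in the other 20 samples ran from 1.20 to 3.37.

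Suv420h1, which makes the dimethyl and trimethyl forms, rose relative to the control genes between the zygote and the 2-cell stage. In MII oocytes it ran from -4.09 to -2.57 with a median of -2.90, and in zygotes from -4.18 to -2.55 with a median of -3.18. The 8 units of the 2-cell stage ran from -2.08 to 1.67 with a median of -0.59, and no unit overlapped with the zygotes. The difference was 2.71 (SE 0.28, adjusted p = 1.7e-12), in a step in which 29.5% of all genes were called higher and the median of all genes moved by -0.33.

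The kind of 2-cell sample moved with the size of this rise. The 3 whole 2-cell embryos were at -2.08, -1.91 and -0.64, whereas the 18 blastomere samples had a median of 0.28 and ran from -2.01 to 1.67. Of these 18, 3 are named for an embryo with no blastomere number, so that their cell number is not known, and the highest value is one of them. The other 15 had a median of 0.41 and ran from -2.01 to 1.60. The fit with whole embryos alone gave a difference of 1.66 (adjusted p = 3.6e-06), and that with blastomere samples alone gave 3.33 (adjusted p = 3.6e-15), both chosen after the data were seen. Control genes had a median Ct of 13.8 in the whole embryos and 16.5 in the blastomere samples. In ESC RNA of 1 dilution series the normalized value of Suv420h1 was also higher at lower input, with -1.49 at 200 pg, -1.77 at 100 pg, -0.90 at 50 pg and -0.59 at 25 pg. Within the 21 samples of the 2-cell stage, Spearman's rho between Suv420h1 and the Ct of the control genes was -0.04. It was 0.40 within the 27 of the 8-cell stage, 0.24 within the 26 of the 16-cell stage and 0.01 within the 50 of the 32-cell stage. The part of template amount in the height of the 2-cell value was not tested.

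After the 2-cell stage Suv420h1 stayed above its oocyte level. The 3 units of the 3-cell stage had a mean of -1.29 ± 0.111 (SD), the 6 units of the 4-cell stage ran from -2.04 to -1.15 with a median of -1.41, and the 7 of the 8-cell stage from -2.58 to -1.50 with a median of -1.93. The 2 embryos of the 16-cell stage were at -1.88 and -1.17, and the 7 of the 32-cell stage ran from -1.18 to 0.36 with a median of -0.21. In the order of the 8 stage means, the gap of 1.06 between the 8-cell stage and the MII oocytes was the only one larger than the SDs of its neighbours.

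Suv420h1 fell by 0.97 between the 2-cell and the 4-cell stage (SE 0.34, adjusted p = 0.0253), where 32.7% of all genes were called. With whole 2-cell embryos alone this difference was 0.08 (adjusted p = 0.952), and without the blastomeres of unnamed embryos the call was lost (adjusted p = 0.0516). The steps from 4-cell to 8-cell (-0.49) and from 8-cell to 16-cell (0.43) were not called. The step from 16-cell to 32-cell was 1.24 (95% interval 0.24 to 2.24, adjusted p = 0.11), where 10.9% of all genes were called. It passed with every sample as a replicate (adjusted p = 6.5e-09). That fit counts samples of 1 embryo as independent, so its p-value does not measure the spread between embryos. From MII oocytes to 16-/32-cell embryos Suv420h1 was higher by 2.46 (SE 0.28, adjusted p = 2.2e-11), that is 5.5-fold, where 37.8% of all genes were called higher. None of the 9 late embryos, all measured as blastomere samples, was below the highest oocyte. Whole embryos of these stages are not in the main set. Normalized Suv420h1 in them was -2.37, -2.37 and -2.28 at the 16-cell stage. At the 32-cell stage it was -2.16, -1.84 and -1.68. All these values lay above the highest oocyte (-2.57) but below every embryo mean of blastomere samples of the same stage. The part of the kind of sample in the difference of 2.46 was not tested.

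The direction of these differences depends on the scaling for all 3 genes. Relative to Gapdh, Hspa8 and Lmnb1, as in the deposited normalized table, Suv420h1 differed by -1.10, Suv420h2 by -1.56 and Setd8 by -3.22 between MII oocytes and 16-/32-cell embryos, while the median of all genes moved by -3.91. With no normalization the differences were -1.84, -2.30 and -3.96, and the median gene moved by -4.65. A scaling shifts all genes of a sample alike, so the position against the median gene does not depend on it: 2.81 for Suv420h1, 2.35 for Suv420h2 and 0.69 for Setd8. From the zygote to the 2-cell stage it was 3.04 for Suv420h1, whose value without normalization differed by -0.29.

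Suv420h2, the other enzyme of the dimethyl and trimethyl forms, was detected in all 11 MII oocytes and all 14 zygotes, at a median Ct of 20.7 and 21.2. It was then detected in 13 of 21 samples (61.9%) of the 2-cell stage, 5 of 7 (71.4%) of the 3-cell stage, 8 of 12 (66.7%) of the 4-cell stage and 15 of 27 (55.6%) of the 8-cell stage. In the 16-cell stage it was detected in 25 of 26 samples (96.2%), and in the 32-cell stage in 37 of 50 (74.0%). All 9 whole embryos of the 2-, 4- and 8-cell stages had a signal, whereas single blastomeres of these stages had one in 7 of 15, 5 of 9 and 12 of 24. In the 16-cell stage 19 of 20 single cells had a signal, and in the 32-cell stage 21 of 32.

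**Figure D2:**
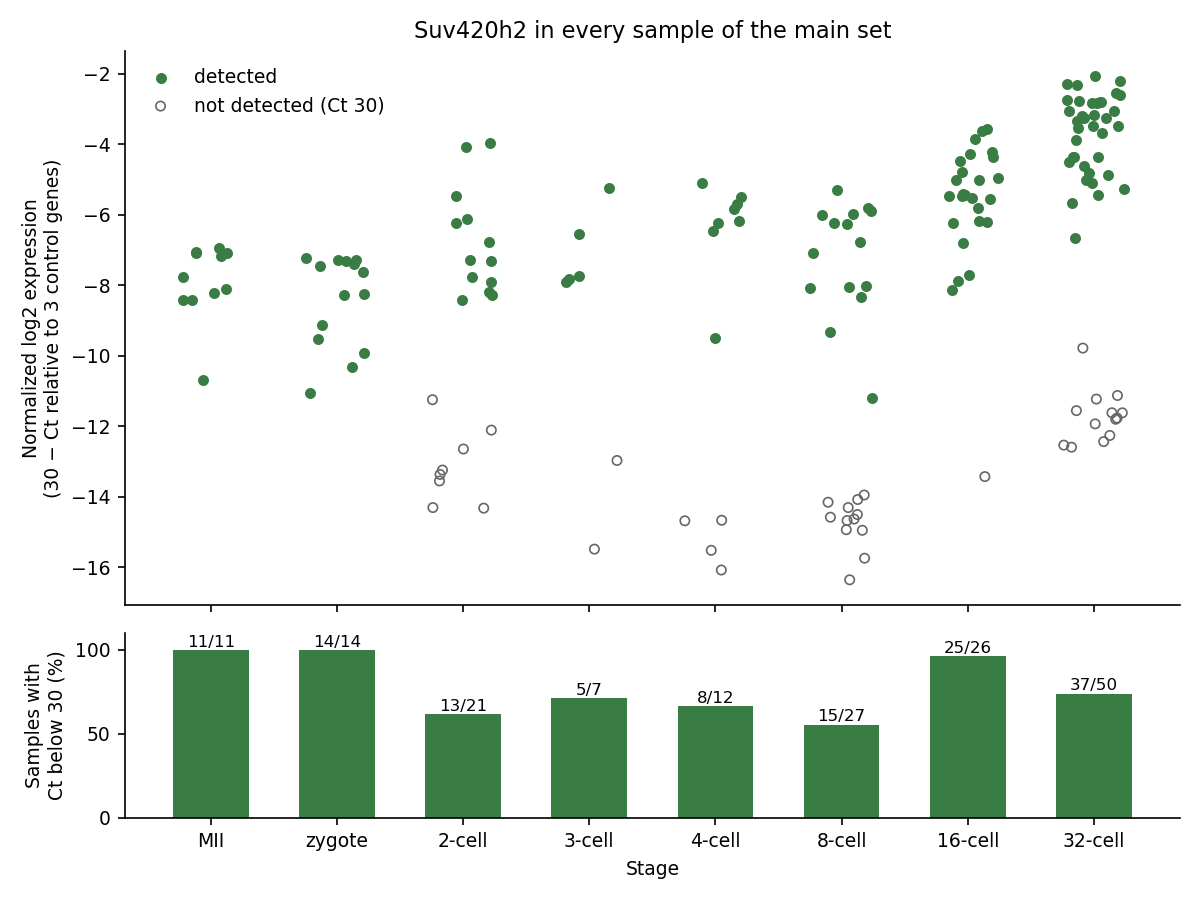
Upper panel, normalized log2 expression of Suv420h2 (y axis) in each of the 168 samples by stage (x axis); filled points were detected and open points have a Ct of 30. Lower panel, percent of samples with a Ct below 30 and the numbers behind it. Open points make up 12 of 27 samples of the 8-cell stage and 1 of 26 of the 16-cell stage.

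At the 8-cell stage the median Ct of the control genes was 15.4 both in samples with and in samples without Suv420h2. At the 32-cell stage it was 17.5 in samples with a signal and 18.2 in samples without, and at the 2-cell stage 16.3 and 16.7. The 3 whole 8-cell embryos, all with a signal, had control genes at a mean Ct of 13.0, 12.5 and 13.9. The part of template amount in detection was not tested. Transcripts absent from a cell and molecules lost before amplification cannot be told apart at this level.

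Where Suv420h2 was detected, its normalized level was also higher late than early. The median over detected samples was -7.76 in MII oocytes, -7.93 in zygotes and -7.27, -7.75, -6.01 and -6.77 in 2-, 3-, 4- and 8-cell samples. It was -5.45 in the 16-cell stage, with a range from -8.14 to -3.56, and -3.34 in the 32-cell stage, with a range from -6.65 to -2.07. These are medians over chosen samples and leave out the lowest. Over detected samples, Spearman's rho between Suv420h2 and the Ct of the control genes was 0.80 in 13 of the 2-cell and 0.80 in 15 of the 8-cell stage. It was -0.14 in 25 of the 16-cell and -0.04 in 37 of the 32-cell stage. The part of template amount in the late level was not tested.

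Over units, with undetected values at a Ct of 30, Suv420h2 ran from -10.7 to -6.94 with a median of -7.76 in MII oocytes and from -11.1 to -7.22 with a median of -7.93 in zygotes. It ran from -12.1 to -8.03 with a median of -9.45 in the 7 embryos of the 8-cell stage, was at -6.05 and -5.44 in the 2 of the 16-cell stage, and ran from -9.76 to -3.71 with a median of -5.45 in the 7 of the 32-cell stage. Both 16-cell embryos lay above every 8-cell embryo, and the number of genes that separate these embryos in this way was not counted.

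From the 8-cell to the 16-cell stage Suv420h2 rose by 4.28 (SE 1.45, adjusted p = 0.0229), in a step in which 28.2% of all genes were called and 19.9% were called higher. The call rests on 2 embryos, and without embryo 4 or embryo 5 the difference was 3.97 or 4.58 with an adjusted p of 0.188 or 0.129. With undetected values left out the rise was 2.21 (adjusted p = 0.0504). Whole embryos of the 16-cell stage, which are not in the main set, gave the same direction. From MII oocytes to 16-/32-cell embryos Suv420h2 was higher by 2.00 (SE 0.81, adjusted p = 0.0211), a call that was lost when every sample counted as a replicate (adjusted p = 0.0556) or the embryo was a random block (adjusted p = 0.0822). The other 5 steps were not called, with adjusted p from 0.2 to 0.976, and in the step from MII oocyte to zygote 1.92% of all genes were called. None of the neighbours in the order of its stage means was further apart than the larger SD.

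The distance between the monomethyltransferase and the other enzymes was then compared between stages, with every gene expressed relative to Setd8, which also removes the control genes from the value. Setd8 exceeded Suv420h1 by 4.88 ± 0.242 (SD, n = 11) in MII oocytes and by 5.27 ± 0.261 (SD, n = 14) in zygotes, and by 2.75 ± 1.28 (SD, n = 8) at the 2-cell stage. At the 3-, 4-, 8- and 16-cell stages it was 3.35, 3.61, 3.44 and 3.32, and it was 2.60 ± 0.552 (SD, n = 7) at the 32-cell stage. The distance was thus larger in every oocyte and zygote, at 4.60 or more, than in any of the 33 later units, at 4.54 or less. The number of genes whose distance to Setd8 separates in this way was not counted. In the fit with whole 2-cell embryos alone, Suv420h1 rose from zygotes by 1.66 and Setd8 by 0.52. With 2-cell blastomere samples alone the changes were 3.33 and -0.0079. The part of template amount in the distance was not tested.

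Relative to Setd8, Suv420h1 was higher by 2.52 (SE 0.27, adjusted p = 1e-11) at the 2-cell stage than in zygotes, where 28.4% of 155 genes were called higher, and by 2.12 (SE 0.28, adjusted p = 9.2e-10) in 16-/32-cell embryos than in MII oocytes, where 35.5% were. It was lower by 0.86 at the 4-cell than at the 2-cell stage (adjusted p = 0.0496), where 16.8% of genes were called lower, a call that was lost with undetected values left out (adjusted p = 0.0654). Suv420h2 relative to Setd8 was higher by 1.66 (SE 0.78, adjusted p = 0.0443) in 16-/32-cell embryos than in MII oocytes, and by 3.98 (SE 1.39, adjusted p = 0.0447) at the 16-cell than at the 8-cell stage, where 7.74% were called higher. Both calls were lost without either 16-cell embryo, at adjusted p of 0.0647 or 0.0662 for the first and 0.201 or 0.237 for the second.

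Relative to Suv420h1, Suv420h2 changed by -1.98 (SE 0.84, adjusted p = 0.0265) between zygote and 2-cell stage. In this step 89.7% of 155 genes were called relative to Suv420h1, so the call follows from the rise of Suv420h1 and is not particular to the pair. From the 8-cell to the 16-cell stage it changed by 3.85 (SE 1.53, adjusted p = 0.0935), which was not called, in a step in which 7.74% of genes were. From MII oocytes to 16-/32-cell embryos the difference between them was -0.46 (95% interval -2.18 to 1.26) where 86.5% of genes were called, which leaves room for a change in either direction, and it turned to 1.27 (adjusted p = 0.012) with undetected values left out.

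Whole oocytes, zygotes and embryos give the content of 1 embryo without any control gene, as 30 minus the Ct. In MII oocytes Setd8 was at 18.9 ± 0.229 (SD, n = 11), and zygotes had 19.1 ± 0.336 (SD, n = 14). The 3 whole 2-cell embryos were at 18.8, 18.3 and 17.1, and Setd8 fell by 1.07 (adjusted p = 0.00237), where 77.6% of all genes were called and the median of all genes moved by -1.79. Without the embryo at 17.1 the change was -0.61 and was not called (adjusted p = 0.111). Suv420h1 was at 13.9 ± 0.372 (SD, n = 14) in zygotes and at 14.2, 14.3 and 13.3 in the 2-cell embryos, a difference of 0.07 (95% interval -0.64 to 0.78, adjusted p = 0.874). Its content was thus nearly level in the step in which its normalized value was higher, while the median gene fell.

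**Figure D3:**
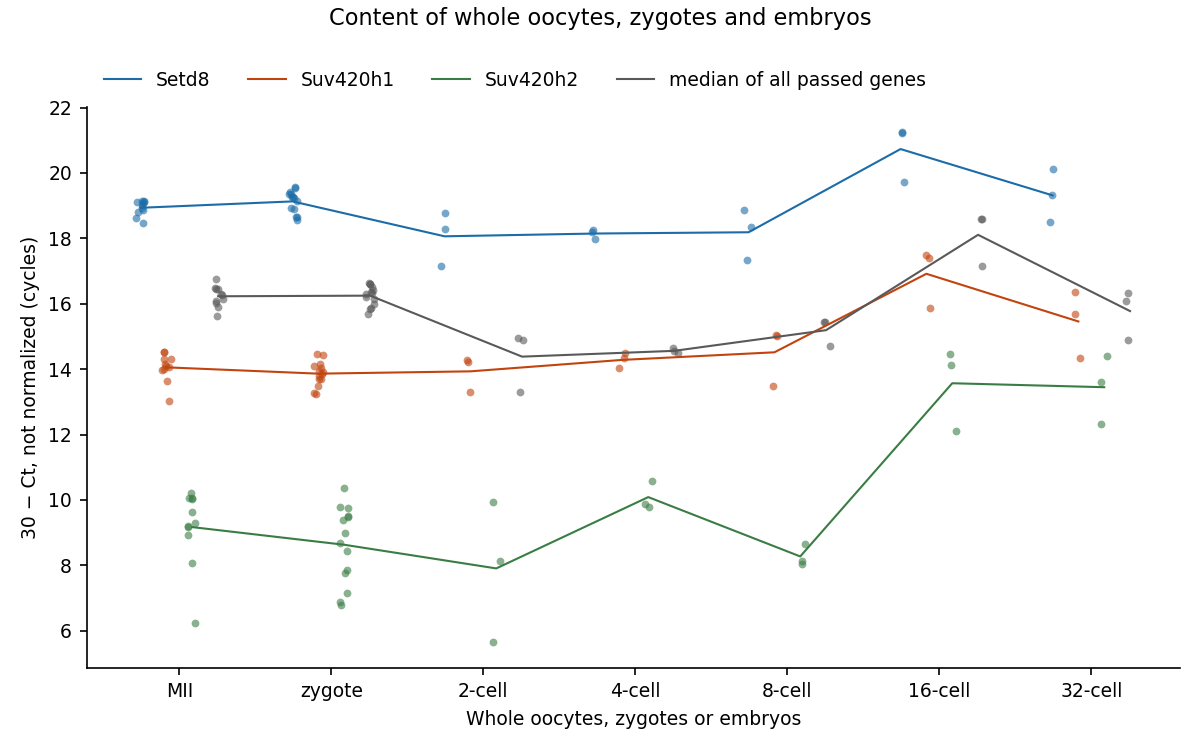
Content of whole oocytes, zygotes and embryos as 30 minus the Ct (y axis, PCR cycles, not normalized) by stage (x axis) for the 3 genes and for the median of all 156 genes of each sample. Points are samples (11 MII oocytes, 14 zygotes and 3 embryos of each later stage) and lines join the means. All 4 lines are higher at the 16-cell than at the 8-cell stage, and from there to the 32-cell stage Suv420h2 differs least, by -0.12.

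In the 4-cell embryos Setd8 was at 17.98, 18.2 and 18.3 and Suv420h1 at 14.0, 14.3 and 14.5, and in the 8-cell embryos Setd8 was at 18.4, 18.9 and 17.3 and Suv420h1 at 15.1, 15 and 13.5. Suv420h2 was at 9.89, 9.78 and 10.6 in the 4-cell and at 8.65, 8.13 and 8.04 in the 8-cell embryos. The steps from 2-cell to 4-cell and from 4-cell to 8-cell, in which 0.641% and 25.6% of all genes were called, were not called for any of the 3 genes.

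The 3 whole 16-cell embryos held more transcript of all 3 genes than the 8-cell embryos. Setd8 was at 19.7, 21.2 and 21.2 and differed by 2.54 (adjusted p = 8.7e-07), Suv420h1 was at 15.9, 17.5 and 17.4 and differed by 2.40 (adjusted p = 1.2e-05), and Suv420h2 was at 12.12, 14.1 and 14.5 and differed by 5.30 (adjusted p = 7.3e-06). In this step 80.1% of all genes were called and the median of all genes moved by 2.79, so that Setd8 and Suv420h1 moved with the median. Normalized to the control genes, Suv420h2 in these 16-cell embryos was at -6.04, -5.73 and -5.28 against -9.33, -8.33 and -8.03 in the 8-cell embryos (difference 2.88, adjusted p = 0.0118). The whole 4-cell embryos, at -6.18, -5.71 and -5.49, overlapped with the 16-cell embryos, so the 16-cell level was not the first of this height. Between the 8-cell and 16-cell embryos Setd8 (0.13) and Suv420h1 (-0.02) differed by less than their SEs.

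In the 3 whole 32-cell embryos the content of Setd8 was 18.5, 19.3 and 20.1 and fell by 1.42 (adjusted p = 0.00216), and that of Suv420h1 was 14.3, 15.7 and 16.3 and fell by 1.46 (adjusted p = 0.00463). The median of all genes moved by -2.46 and 65.4% were called. Without the embryo at 14.3 the change of Suv420h1 was -0.89 and was not called (adjusted p = 0.0975). Suv420h2 was at 12.3, 13.6 and 14.4 and differed by -0.12 (95% interval -2.05 to 1.81). Its normalized values in these embryos, -4.18, -3.91 and -3.62, were above those of all 3 whole 16-cell embryos.

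Blastomere samples of 1 embryo differed little in Setd8 and Suv420h1 and widely in Suv420h2. The 2-cell SD rests on 5 samples of 2 embryos, with a sample of no blastomere number among them. It leaves out the 11 blastomeres of unnamed embryos. Of the 50 samples of the 32-cell stage, 18 held more than 1 cell. Within embryos, the pooled SD of Setd8 was 0.444, 0.259, 0.4, 0.555 and 0.633 at the 2-, 4-, 8-, 16- and 32-cell stages, and that of Suv420h1 was 0.556, 0.314, 0.477, 0.614 and 0.717. The median over all 156 genes was 0.659, 0.507, 0.643, 0.915 and 1.34, above both. The SD of Suv420h2 was 2.38, 4.67, 4.33, 2.00 and 3.61, and with undetected values left out 1.15, 1.92, 1.57, 1.28 and 1.18, still above the medians over all genes computed the same way (0.592, 0.458, 0.613, 0.81 and 0.905).

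**Figure D4:**
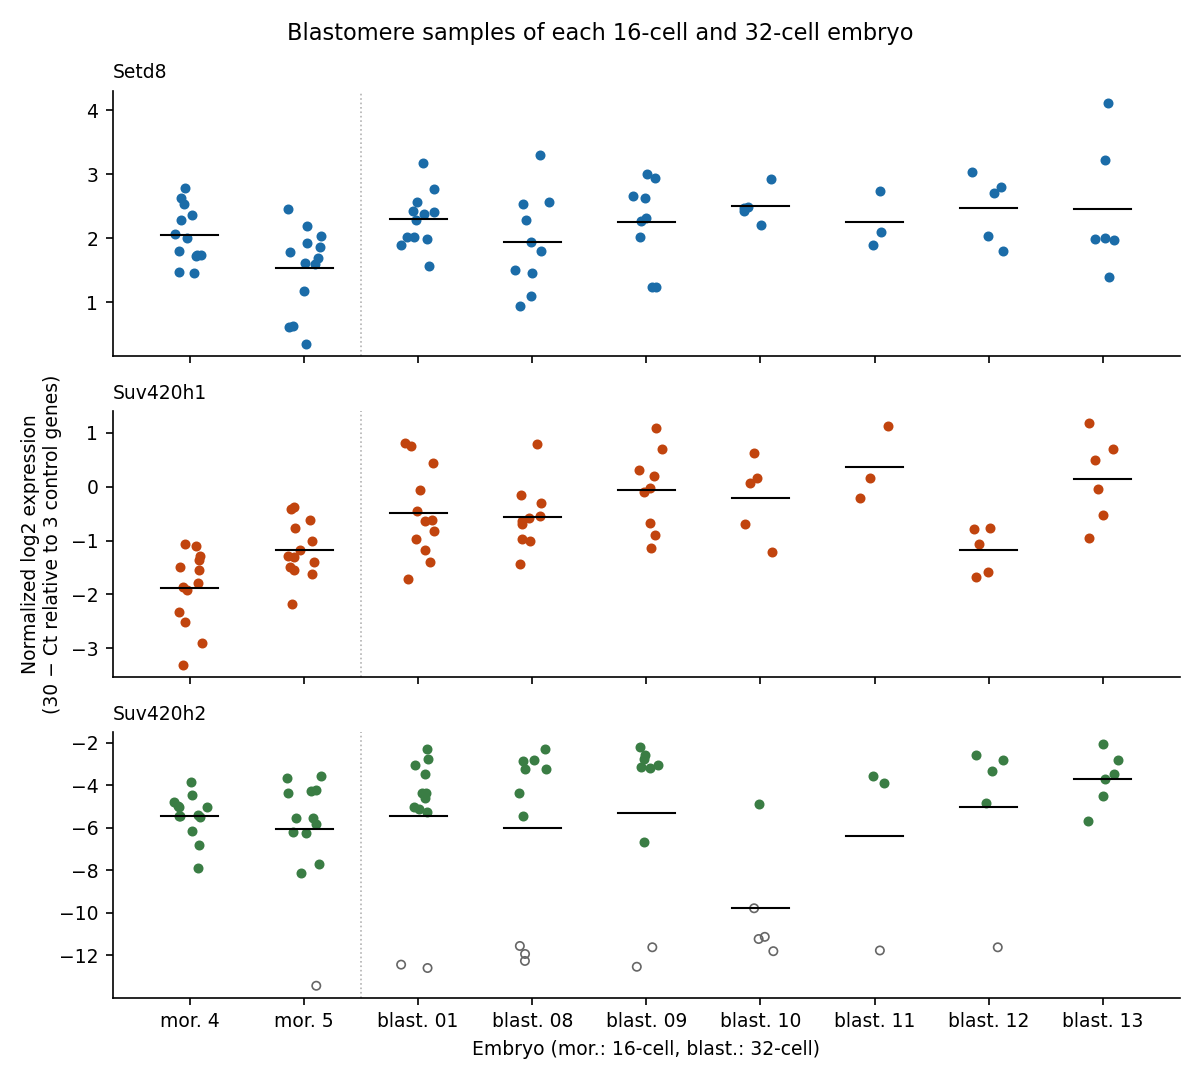
Normalized log2 expression of each gene (y axis) in the blastomere samples of the 2 embryos of the 16-cell stage (mor.) and the 7 of the 32-cell stage (blast.), with the mean of each embryo as a line; open points were not detected. Suv420h2 was detected in 1 of 5 samples of embryo 10 and in 6 of 6 of embryo 13.

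Suv420h2 was not detected in some samples of 6 of the 7 embryos of the 32-cell stage. It was detected in 10 of 12 samples of embryo 01, 7 of 10 of embryo 08, 7 of 9 of embryo 09, 1 of 5 of embryo 10, 2 of 3 of embryo 11, 4 of 5 of embryo 12 and 6 of 6 of embryo 13. Embryo means of Suv420h1 in this stage were between -1.18 (embryo 12) and 0.36 (embryo 11), while those of Setd8 were between 1.95 (embryo 08) and 2.50 (embryo 10).

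Late blastomere samples (76 in all, 52 of them single cells) were set against a lineage score, in which the average over 8 core TE genes is subtracted from that over 12 core ICM genes. The control genes cancel in this score and enter only the value of the gene set against it. Many of these samples share an embryo, and the study chose the core genes on the same samples, so the coefficients are descriptions without a test. Over all 76 samples Spearman's rho was -0.16 for Setd8, 0.36 for Suv420h1 and -0.08 for Suv420h2, while the quartiles over the 136 genes outside the core lists were -0.13 and 0.32.

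For Setd8 the pooled value joined samples of opposite sign, and it moved with the setting, to -0.47 without normalization of the gene, 0.01 without Ssu72, -0.32 without Ube2e1 and -0.03 in single cells. In the 26 samples of the 16-cell stage rho was 0.47, with 0.32 in embryo 4 and 0.59 in embryo 5. In the 50 samples of the 32-cell stage it was -0.55, with -0.50, -0.55, -0.72 and -0.60 in the 4 embryos of at least 6 samples. With other scalings of Setd8, chosen after the data were seen, rho was 0.13 to 0.56 at the 16-cell stage and -0.60 to -0.38 at the 32-cell stage. The lowest at the 16-cell stage was that without normalization, where 1 of the 2 embryos was positive. Of these 136 genes, 2 had a lower rho at the 32-cell stage and 17 had a higher one at the 16-cell stage. In the isolated groups of cells, with 1 sample each and no replicate, Setd8 was at 2.70 in the ICM group and at 1.96 in the TE group. Their lineage scores were -0.48 and -4.24, where the 32-cell samples ran from -8.71 to 10.12 with a median of 6.00, so the ICM group was not high on this score.

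Suv420h1 gave 0.20 at the 32-cell stage and -0.10 at the 16-cell stage, and within embryos its rho ran from -0.47 to 0.90. The pooled value was 0.17 with values centred on the embryo and -0.14 without normalization of the gene. In the isolated groups Suv420h1 was at -0.88 in the ICM and at -2.10 in the TE. Suv420h2 gave -0.25 at the 32-cell stage and -0.01 at the 16-cell stage, and 0.06 over the 62 samples in which it was detected. Within embryos its rho ran from -0.80 to 0.02 and was positive in 1 of 6. It was at -4.58 in the ICM group and at -3.29 in the TE group.

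**Figure D5:**
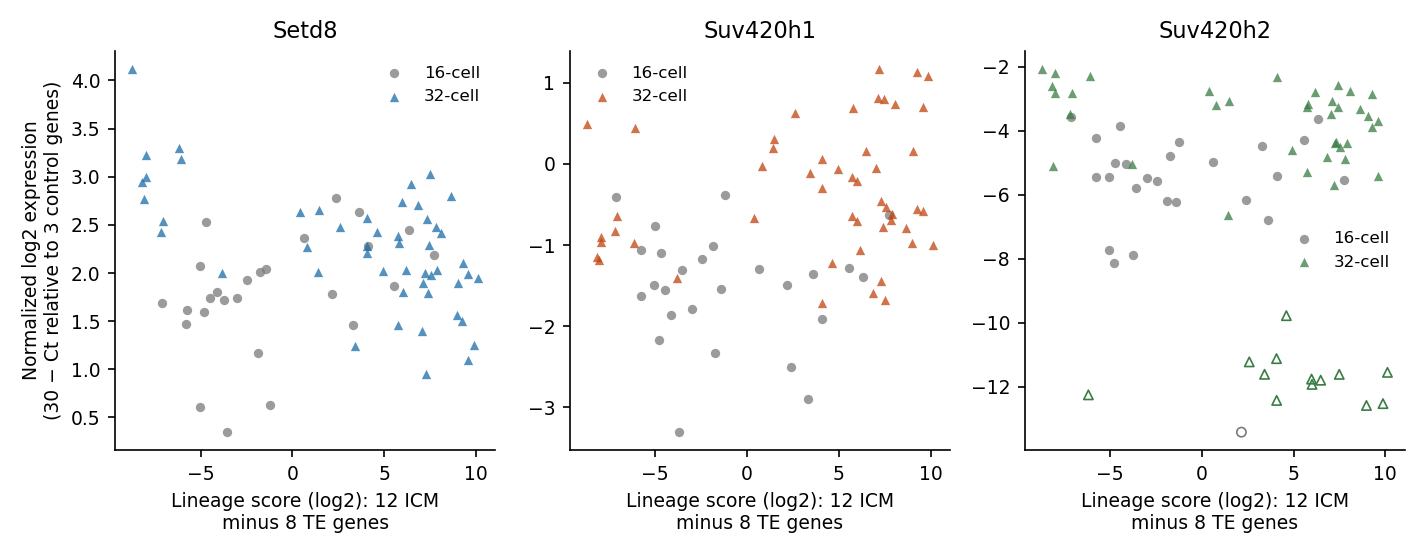
Normalized log2 expression of each gene (y axis) against the lineage score (x axis, log2 units, higher toward ICM genes) in 26 samples of the 16-cell stage (grey circles) and 50 of the 32-cell stage (coloured triangles); open symbols were not detected. Setd8 slopes down in the triangles (rho -0.55) and up in the circles (rho 0.47).

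The 3 genes were weakly related to each other across late samples with undetected values at a Ct of 30. Spearman's rho at the 32-cell stage was -0.17 between Setd8 and Suv420h1, 0.24 between Setd8 and Suv420h2 and 0.16 between Suv420h1 and Suv420h2, over 50 samples that share the control genes. Over the 37 samples in which Suv420h2 was detected, rho was 0.41 with Setd8 and 0.06 with Suv420h1. Over the 25 such samples of the 16-cell stage it was 0.06 and 0.14. Over the 62 such samples of both late stages it was 0.38 and 0.48, which also hold the difference between the stages. Over the 58 unit means Pearson's r was 0.37, 0.38 and 0.22 for the same pairs.

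Of the 150 other genes, those with a course most like Suv420h1 over the 58 units were Mtf2, a Polycomb-like partner of PRC2 (r = 0.88), Tbx3, a T-box transcription factor (r = 0.82), and Tet1, which oxidizes methylated cytosine (r = 0.82). Setd8 and Suv420h2 had no comparably close match. Among the nearest to Setd8 were Nf2, the tumour suppressor merlin (r = 0.55), and Setd5 (r = 0.50), and the nearest to Suv420h2 were the H3K4 methyltransferase Mll1 (r = 0.51), Setd5 (r = 0.49) and Mtf2 (r = 0.39). These r describe a likeness over units that share the control genes.

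Other genes of the pathway moved differently between MII oocytes and 16-/32-cell embryos. All 4 other assays annotated to H4K20 were lower: the methyltransferases Nsd1 (-2.17) and Whsc1 (-3.40) and the demethylases Phf8 (-4.12) and Jhdm1d (-5.11). All 4 genes of the MBT group, whose MBT domains bind methylated lysines in several of its proteins, were lower as well, namely L3mbtl3 (-1.54), Sfmbt1 (-5.87), Scmh1 (-2.76) and Scml2 (-12.1), which was detected in 16 of 76 late samples. In this comparison 46.8% of all genes were called lower and 37.8% higher. The medians of the lists were -3.76 and -4.32, beside -0.35 over all 156 genes.

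The H3K9 methylation and HP1 genes split, with 4 of 9 higher, 4 lower and 1 not called, and a median of 0.13. The methyltransferases Suv39h1 (8.36) and Ehmt2 (5.77), the HP1 gene Cbx3 (7.33) and the corepressor Trim28 (0.99) were higher, of which Suv39h1 was detected in 6 and Ehmt2 in 10 of 11 MII oocytes, so that their differences rest in part on values set at a Ct of 30. The methyltransferases Suv39h2 (-6.99), Setdb1 (-0.82) and Setdb2 (-2.84) and the HP1 gene Cbx1 (-0.80) were lower, and Cbx5 differed by 0.13 (adjusted p = 0.446). Of these lists, 8 genes were called in the step from the zygote to the 2-cell stage among the 9 H3K9 and HP1 genes, with 4 higher and 4 lower, where 68.6% of all genes were called, 29.5% higher and 39.1% lower.

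In RNA of ESC, which are derived from the ICM, all 3 genes were measured in 10 samples of 25 to 800 pg. Setd8 ran from 1.70 to 2.84 with a median of 2.26 and Suv420h1 from -2.13 to -0.59 with a median of -1.52. Suv420h2 was detected in 9 of 10, from -5.58 to -2.81, and was missed at 32 pg. In the 3 samples of 200 pg of 1 series the Ct was 12.11 ± 0.277, 15.7 ± 0.235 and 16.9 ± 0.329 (SD, n = 3) for Setd8, Suv420h1 and Suv420h2. The 9 detected ESC values of Suv420h2 were above those of all 25 oocytes and zygotes. The sample that missed it, set at a Ct of 30, was at -10.5, within the -11.1 to -6.94 of these oocytes and zygotes. The number of genes that separate in this way was not counted.

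The response to input was near 1 cycle per doubling for Setd8 and Suv420h2 and lower for Suv420h1 in the 4 samples of 1 dilution series. A doubling of RNA changed 30 minus the Ct by 1.04 cycles for Setd8, 0.777 for Suv420h1 and 1.08 for Suv420h2, against a median of 1.05 over 129 genes and a middle range from 0.977 to 1.16. The control genes had slopes of 1.00, 1.12 and 1.28, above that of Suv420h1. In the second series, over 32, 160 and 800 pg, the slopes were 0.99 for Setd8 and 0.965 for Suv420h1, and Suv420h1 was again higher at the lowest input (-0.97) than at the highest (-1.71).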

How the data were processed

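Gene expression was measured by microfluidic quantitative PCR after reverse transcription and specific target amplification of single cells, small groups of cells, whole embryos and ESC RNA. The deposited non-normalized table holds Ct values (a score in PCR cycles) of 192 assays in 189 samples, as exported by the authors from the instrument's software, with 30 for genes not detected; no value of the 3 genes lay above 30. The deposited normalized table is on a log2 scale and equals 30 minus the Ct relative to Gapdh, Hspa8 and Lmnb1. Because the study's methods describe normalization to Hnrnpr, Ssu72 and Ube2e1, these were used here, and the deposited normalized values are an alternative. There is no read depth; Ct of the control genes stands for template amount. No samples had identical values.

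Groups were taken from the labels. Samples of 1 embryo were averaged, and stages were compared over 58 oocytes, zygotes or embryos with limma (lmFit, eBayes, version 3.58.1, R 4.3.3), all stages in 1 fit, Benjamini-Hochberg adjustment over 156 genes per comparison and a threshold of 0.05. Relative changes were fitted on 155 genes after subtraction of the reference gene, and whole embryos in a separate fit. Labels do not say which embryos share a litter or a day, so p-values measure the spread between these embryos. The fits were tested on simulated data. Spearman coefficients, slopes and pooled SDs were computed with Python 3.11.15 and scipy 1.17.1. The 36 failed assays and 3 samples that the study left out (1 MII oocyte, 2 single 32-cell blastomeres) are not in the main set.

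Genes named are the 3 enzymes, the members of lists of other H4K20 genes, MBT genes and H3K9 and HP1 genes, and for each enzyme the 3 genes with the highest Pearson r over the 58 units, of which 1 is not reported here. The genes and lists were chosen with earlier results of these data known. Alternatives were other control genes, sample medians, no normalization, a floor at -10, undetected values left out, samples as replicates with or without a block, single cells, median in place of mean, and samples left out or added.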

Additional observations from a re-analysis of the deposited data

Results flagged for a closer look

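A single 3-cell blastomere had Setd8 at -0.65, far below the 2.01 to 3.13 of the other 6 samples. Its Setd8 Ct was 14.9, within the 11.7 to 15.7 of the others, at a control gene Ct of 14.2, where theirs was 13.9 to 18.9. Suv420h1 was -2.40 in this sample, and 15 genes were not detected in it against 10 to 27 in the others. Without it the mean of its embryo would be 2.35 in place of 1.35. Of 15 groups examined, 1 had such a sample, and chance gives about 1 in 20.

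The relation of Setd8 with the lineage score had opposite signs at the late stages. The median rho within embryos was 0.45 in the 2 embryos of the 16-cell stage and -0.58 in the 4 embryos of the 32-cell stage with at least 6 samples. All embryos of each stage had the same sign, except that without normalization of Setd8 only 1 of the 2 embryos of the 16-cell stage was positive, and the difference was not tested.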

How the results depend on the processing

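Of 792 recomputed differences between stages, 668 kept direction and call, 30 lost a call, 18 gained one and 76 turned direction, 57 of these with no call before or after. A scaling moves all genes of a sample alike, and no other cause was tested. Precision is limited by 2 embryos of the 16-cell stage and by the Ct of Suv420h2 near the limit of detection. L stands for the change from MII oocytes to 16-/32-cell embryos, other pairs of numbers for steps between cell stages.

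With no normalization Setd8, Suv420h1 and Suv420h2 gave -2.81, -0.29 and -2.27 from zygote to 2-cell, 1.17, 0.31 and 0.55 for 2 to 4, and -3.96, -1.84 and -2.30 for L. Setd8 gave -0.33 for 4 to 8, -1.06 for 8 to 16 and -1.45 for 16 to 32, Suv420h1 -0.93 and -0.73 for the last 2 steps, and Suv420h2 2.92 for 8 to 16. With the deposited normalized table L was -3.22, -1.10 and -1.56, the step 8 to 16 was -1.57, -1.44 and 2.40, and Setd8 gave -0.26 from zygote to 2-cell and -0.64 for 16 to 32. Without Hnrnpr Setd8 gave a called 0.62 from zygote to 2-cell. Without Ssu72 Setd8 gave -0.49 for 4 to 8 and 0.82 for L, Suv420h1 1.58 and Suv420h2 0.14 for 16 to 32. Without Ube2e1 Setd8 gave -0.31 from zygote to 2-cell, 0.083 for 2 to 4 and -0.50 for 4 to 8, and Suv420h1 -0.78 for 2 to 4. With sample medians Setd8 gave 0.055 for 2 to 4, -0.19 for 4 to 8, -0.099 for 8 to 16 and 0.67 for L, and Suv420h1 0.031 from oocyte to zygote and -0.81 for 2 to 4.

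With undetected values left out Suv420h2 gave 1.43 from zygote to 2-cell and 0.90, -1.54, 2.21 and 1.65 for 2 to 4, 4 to 8, 8 to 16 and 16 to 32. Relative to Setd8 it gave 1.05 from zygote to 2-cell, 1.12 for 2 to 4, 1.85 for 8 to 16 and 1.15 for 16 to 32, and Suv420h1 gave -0.72 for 2 to 4. Relative to Suv420h1 it gave 2.01 for 2 to 4, 0.41 for 16 to 32 and 1.27 for L. Its SD within embryos was 1.15, 1.92, 1.57, 1.28 and 1.18. For 2 to 4 and 16 to 32 it gave 0.29 and 0.12 with a floor at -10, and 0.16 and 0.71 with medians within embryos.

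With every sample as a replicate and no block, Setd8 gave -0.30, 0.33 and -0.51 for zygote to 2-cell, 2 to 4 and 4 to 8, Suv420h2 gave -0.73 from zygote to 2-cell and 2.14 for L, and Suv420h1 gave 1.19 for 16 to 32. With the replicate number of the labels as a block these were -0.30, 0.33, -0.51, -0.74, 2.14 and 1.18. The numbers did not pair samples: the median correlation of deviations was -0.0074 over 420 pairs of equal number, 80 of them over 0.1. With the embryo as a random block the values were -0.12, 0.16, -0.53, -0.14, 2.10 and 1.20, and Suv420h2 gave -0.46 from zygote to 2-cell and 1.90 for L relative to Setd8, and 4.51 for 8 to 16 relative to Suv420h1.

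With single cells Setd8 gave -0.43 for 4 to 8, Suv420h2 gave 0.39 for 4 to 8 and 1.32 for L relative to Setd8, and -1.81, 0.30 and 5.17 for 2 to 4, 4 to 8 and 8 to 16 relative to Suv420h1. Without blastomeres of unnamed embryos Suv420h1 gave -0.86 for 2 to 4, and with the 3 left-out samples added Setd8 gave 0.45 for L. Chosen after the data were seen, whole 2-cell embryos alone gave 0.076 for Suv420h1 in 2 to 4 and a called 1.24 for 16 to 32, and 2-cell blastomere samples alone a called 1.24, with -0.0079 and 0.0896 for Setd8 from zygote to 2-cell and for 2 to 4.

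Leaving out either 16-cell embryo gave Suv420h2 3.97 to 4.58 for 8 to 16 and -0.51 to 0.10 for 16 to 32, and relative to Setd8 3.93 to 4.02 for 8 to 16 and 1.59 to 1.60 for L, while Suv420h1 relative to Setd8 gave -0.48 to 0.74 for 8 to 16. Leaving out 1 whole embryo gave, from zygote to 2-cell, -1.42 to -0.61 for Setd8, -0.10 to 0.39 for Suv420h1 and -1.74 to 0.41 for Suv420h2. It gave -0.37 to 0.44 for Setd8 in 2 to 4, -0.30 to 0.46 for Setd8 and -0.038 to 0.74 for Suv420h1 in 4 to 8, and -1.97 to -0.89 for Suv420h1 and -0.85 to 0.45 for Suv420h2 in 16 to 32. Normalized to the control genes, whole embryos gave 0.52, 1.66 and 0.87 for the 3 genes from zygote to 2-cell, -0.92, -0.73 and -2.77 for 4 to 8, and 0.49, 0.44 and 1.78 for 16 to 32. Setd8 and Suv420h1 then gave -0.32 and -0.056 for 2 to 4, and 0.13 and -0.015 for 8 to 16.

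The rho with the lineage score was 0.47 for Setd8 in 16-cell samples alone and -0.14 for Suv420h1 without normalization of the gene. The slope of Suv420h2 on ESC RNA was 0.609 over 9 samples, and 1.08 and 1.39 in the 2 dilution series alone.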
